A study of Mus musculus with 2 samples.

Results

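The vascular endothelial growth factor (VEGF) ligands and receptors are described here as 10 genes chosen by symbol: the 5 ligand genes Vegfa, Vegfb, Vegfc, Vegfd and Pgf, the 3 receptor tyrosine kinase genes Flt1, Kdr and Flt4, and the 2 neuropilin genes Nrp1 and Nrp2. All 10 were found in both gene tables, among 43346 mouse genes of which 21474 are protein-coding. Total RNA was sequenced from whole hearts of B6NCrl mouse embryos of both sexes at embryonic day 11.5, in 2 libraries of 1 group. The labels call the embryos healthy and name no mutant allele and no treatment. Replicate 1 came from a pool of 109 embryos, and the number pooled for replicate 2 is not given in the sources used here. The 2 pools are recorded as separate biosamples under 1 donor identifier, so the spread between them covers pooling, dissection and library preparation together. With no second group, the values describe which ligands and receptors the tissue contained, in what proportions and splice forms, and how far the libraries differed.

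VEGF ligands are secreted dimers that bind receptor tyrosine kinases, chiefly on endothelial cells. VEGF-A binds the receptors encoded by Flt1 and Kdr, and VEGF-B and placental growth factor (Pgf) bind that of Flt1. VEGF-C binds chiefly, but not only, that of Flt4, and in mouse VEGF-D binds that of Flt4. Kdr carries most of the growth and permeability signal, Flt1 binds ligand tightly but signals weakly, and the neuropilins are co-receptors that also bind class 3 semaphorins. In the embryonic heart this pathway acts in the endocardium, the cushions and the forming coronary vessels.

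Expected counts (the authors' estimated reads per gene) in mouse genes summed to 34447169 in replicate 1 and 25261719 in replicate 2. Levels are in TPM, a transcript abundance corrected for length. Spike-in RNAs held 16.0% of the TPM in replicate 1 and 17.1% in replicate 2, so mouse genes share less than the whole scale. The cardiomyocyte genes Actc1, Myl7 and Myl2 stood at 9392 ± 340, 5787 ± 381 and 5027 ± 50.8 TPM (SD, n = 2), and all 7 cardiomyocyte, all 5 epicardial and all 5 cushion mesenchyme markers reached 1 TPM in both libraries. Of other cell types the heart could hold, 3 of 4 macrophage and 2 of 3 neural markers reached that level. Globin and heme genes were plentiful, at a sum of 45249 TPM over 5 erythroid markers in replicate 1 and 38055 TPM in replicate 2. All 5 hepatic and yolk sac markers were higher in replicate 1, with summed levels of 181.9 TPM in replicate 1 and 34.3 TPM in replicate 2. The part of cell composition in the differences between the libraries was not tested.

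All 10 genes reached 1 TPM in both libraries, a level reached by 56.4% of protein-coding genes. Of the 10, 5 reached 10 TPM in both, as did 7411 of the 21474 protein-coding genes. Mean levels ran between 2.01 ± 0.629 TPM for Vegfd and 57.5 ± 1.34 TPM for Vegfb (SD, n = 2). The median protein-coding gene with a count stood at 7.57 TPM in replicate 1 and 7.73 TPM in replicate 2. In whole-tissue RNA, a level that is low because few cells make the transcript cannot be told apart from one that is low because each cell holds little of it.

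**Figure D1:**
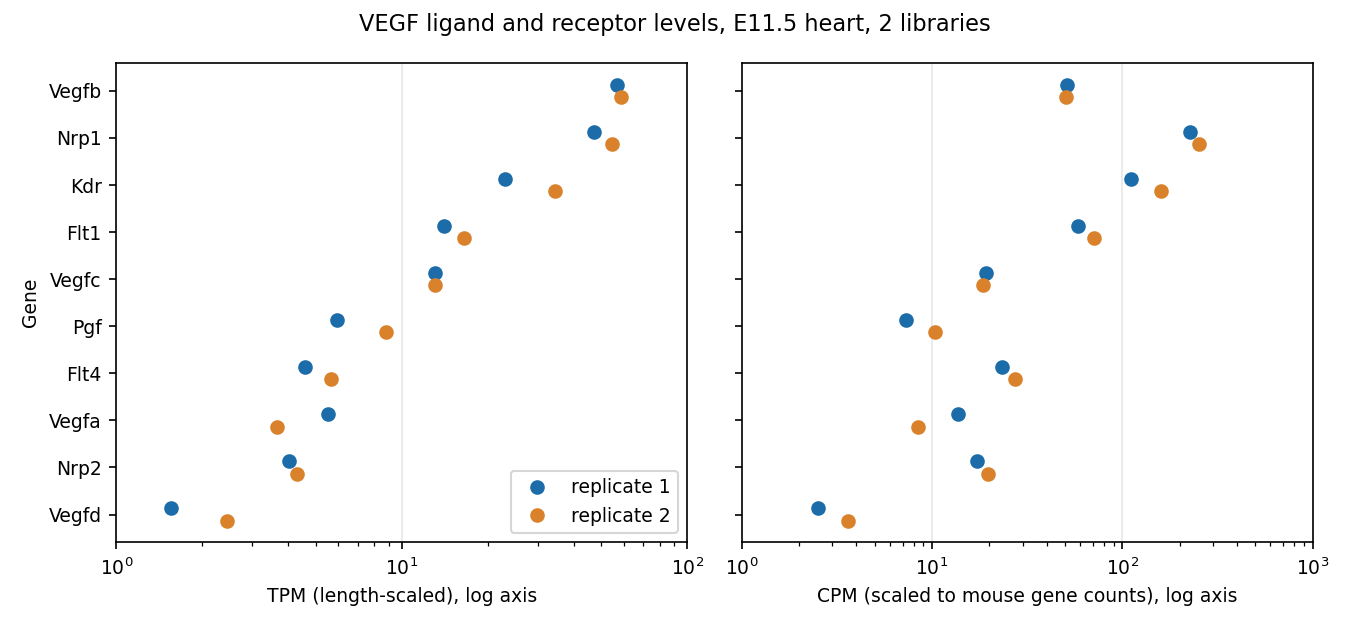
Levels of the 10 genes in each library, as TPM (left, log axis) and as CPM, counts scaled to the library's mouse gene total (right, log axis); each point is 1 library, replicate 1 in blue and replicate 2 in orange. Vegfb stands highest in TPM at 56.6 and 58.5, whereas Nrp1 stands highest in CPM at 227.0 and 252.6.

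Among the ligands, Vegfb (chr19:6982473-6987651, minus strand, GRCm38, the same assembly as mm10) was the most abundant. It encodes a ligand of the Flt1 receptor that is known for expression in heart muscle. Its level was 56.6 TPM in replicate 1 and 58.5 TPM in replicate 2, from 1772 and 1279 expected counts. These levels exceeded those of 87.6% and 87.5% of the 16941 protein-coding genes with a count, and the libraries were nearly level.

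Vegfb made 2 main splice forms, and the sequences are shown because a single alternative splice site separates them. The long form, Vegfb-201, encodes the freely diffusing VEGF-B186 type of 207 codons with signal peptide, and the short form, Vegfb-202, the heparin-binding VEGF-B167 type of 188 codons. Capitals mark the 101 bases (chr19:6985496-6985596, minus strand) that the long form alone contains, and the lower-case bases are shared flanks, from GENCODE M21 transcripts on GRCm38.
Vegfb-201: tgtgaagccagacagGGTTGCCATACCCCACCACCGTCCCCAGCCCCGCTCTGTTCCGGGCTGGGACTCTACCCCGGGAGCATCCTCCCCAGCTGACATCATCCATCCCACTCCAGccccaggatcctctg
Vegfb-202: tgtgaagccagacagccccaggatcctctg
The short form held 54.2% of the gene's TPM in replicate 1 and 61.4% in replicate 2. The long form held 43.6% and 36.05% in the same libraries. Both forms were thus well represented, with the short one ahead in each library. Of the coding TPM, the long form took 40.8% ± 5.38 (SD, n = 2).

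Vegfc (chr8:54077606-54187096, plus strand), which encodes the main ligand for Flt4 and lymphatic growth, was second among the ligands. It stood at 13.04 TPM in replicate 1 and 13.09 TPM in replicate 2, from 663 and 470 expected counts. The libraries were nearly level, with an SD of 0.0354 TPM (n = 2), the smallest SD of the 10 genes. Vegfc has 1 transcript in the files.

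Pgf (chr12:85166635-85177790, minus strand), the gene of placental growth factor, stood at 5.95 TPM in replicate 1 and 8.80 TPM in replicate 2, from 252 and 263 expected counts. The deposited intervals of these levels, whose confidence level is not given in the sources used here, were 5.15 to 6.58 TPM and 7.57 to 9.63 TPM and did not overlap.

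Vegfa (chr17:46016993-46032369, minus strand), the ligand without which embryonic vessels fail to form, ranked below Pgf by mean TPM on the lengths of the files. Its level was 5.51 TPM in replicate 1 and 3.67 TPM in replicate 2, from 473 and 213 expected counts. Replicate 1 was the higher library here, in contrast to Pgf. The posterior mean estimates were higher, at 6.21 and 4.52 TPM, with deposited intervals of 5.43 to 7.02 TPM and 3.68 to 5.44 TPM.

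Vegfa splice forms differ by 2 alternative exons that carry the heparin-binding domain, which sets how far the protein diffuses. The 132-base exon (chr17:46020991-46021122, minus strand) is included in Vegfa-202, the VEGF164 type. A form with neither exon, the freely diffusing VEGF120 type, joins the flanking exons directly. Both junctions are shown because the balance between them is what the transcript table reports. Capitals mark the exon, and lower case the 15 shared bases on either side, from GENCODE M21 on GRCm38.
Vegfa-202: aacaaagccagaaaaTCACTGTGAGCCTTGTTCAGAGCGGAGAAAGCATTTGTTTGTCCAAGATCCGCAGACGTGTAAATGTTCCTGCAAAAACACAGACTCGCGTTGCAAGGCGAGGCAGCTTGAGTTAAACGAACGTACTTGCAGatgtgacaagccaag
Vegfa-201: aacaaagccagaaaaatgtgacaagccaag
Most Vegfa was assigned to transcripts that lack both exons. Vegfa-211, whose annotated coding region begins at an upstream start and spans 324 codons, held 62.9% of the gene's TPM in replicate 1 and 53.1% in replicate 2. Vegfa-201, of 146 codons, held 29.2% and 31.0%. Together the forms without both exons made up 91.9% ± 3.0 of coding TPM (SD, n = 2), 94.1% in replicate 1 and 89.8% in replicate 2. Vegfa-202 with the 132-base exon held 5.78% in replicate 1 and 9.66% in replicate 2. That form rests on 30.5 and 23.9 expected counts, and its deposited intervals ran from near 0 to 0.987 TPM and from near 0 to 1.19 TPM. Vegfa-207, with both exons (VEGF188 type), was listed at 0 in both libraries. Posterior mean shares, which spread reads over more forms, put the forms without both exons at 85.7% and 77.1% of coding TPM. Reads that reach these exons or their junctions separate the forms by exon content, and the number of such reads is not in the tables. The transcript models also differ in length, at 2765 bases for Vegfa-201, 3324 for Vegfa-211, 3451 for Vegfa-202 and 1973 for Vegfa-207. A read from sequence that a model lacks cannot be assigned to it, whatever the exons of its RNA. How far this moved the shares, or the 0 of Vegfa-207, was not tested.

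Vegfd (chrX:164373378-164402650, plus strand), a second ligand of Flt4, had the lowest level of the 10 genes. It stood at 1.56 TPM in replicate 1 and 2.45 TPM in replicate 2, from 87 and 91 expected counts. Its deposited intervals, 1.29 to 2.01 TPM and 1.97 to 3.12 TPM, overlapped slightly. The coding transcript Vegfd-201 held 100% of the gene in replicate 1 and 90.3% in replicate 2.

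The 5 ligands summed to 82.6 TPM in replicate 1 and 86.5 TPM in replicate 2. Vegfb made up 68.0% ± 0.602 of that sum, Vegfc 15.5% ± 0.456, Pgf 8.69% ± 2.10, Vegfa 5.46% ± 1.71 and Vegfd 2.36% ± 0.668 (SD, n = 2 each). By counts, without gene length, the shares were 54.9% for Vegfb, 20.4% for Vegfc, 11.9% for Vegfa, 9.56% for Pgf and 3.30% for Vegfd, so Vegfa was then above Pgf. Vegfb, the ligand of Flt1, took the largest share on either scale. A pair of genes was called apart where both libraries had the same gene higher, the mean log2 ratio of TPM was at least 1, and that mean exceeded 2 times its SD. Ratios, shares and levels carry no p, since an exact sign-flip test (two-sided) of 2 libraries cannot go below 0.5. Vegfb and Vegfa were apart, at a log2 TPM ratio of 3.68 ± 0.448 (12.8-fold, n = 2), a ratio that depends on the annotated lengths: by counts alone it was 4.74-fold. Vegfc and Vegfa were apart at 1.54 ± 0.418 on the log2 TPM scale, but not by counts, at 0.81. Vegfc and Vegfd, the ligands of Flt4, were apart at 2.74 ± 0.457 by TPM and 2.65 by counts. Pgf and Vegfa were not apart, at 0.69 ± 0.814 by TPM, and by counts the order was the opposite, at -0.30.

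Among the receptor kinases, Kdr (chr5:75932827-75978458, minus strand), the main signalling receptor for VEGF-A, was the most abundant. It stood at 23.1 TPM in replicate 1 and 34.3 TPM in replicate 2, from 3816 and 4018 expected counts. Replicate 2 had the higher count although it was the shallower library. Nearly all of the gene's TPM lay in the coding transcript Kdr-201 in both libraries.

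Flt1 (chr5:147561604-147726011, minus strand) encodes both a membrane receptor and a soluble decoy that binds ligand without signalling. Its level was 14.01 TPM in replicate 1 and 16.6 TPM in replicate 2, from 2018 and 1796 expected counts. The soluble form, Flt1-203, arises where transcription reads through a splice donor into the following intron of the membrane form, Flt1-202, and ends there. The sequences show this point: in Flt1-203 the capitals are the 92 intronic bases that code the soluble tail, stop codon not shown (chr5:147639133-147639224, minus strand), and in Flt1-202 the same exon end joins the next exon.
Flt1-203: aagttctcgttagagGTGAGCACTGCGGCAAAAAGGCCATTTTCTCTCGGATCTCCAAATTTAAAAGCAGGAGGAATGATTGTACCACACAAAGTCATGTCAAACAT
Flt1-202: aagttctcgttagagattcggaagcgccac
Membrane Flt1 held 5.25 TPM in replicate 1 and 7.55 TPM in replicate 2, which were 37.5% and 45.5% of the gene. Soluble Flt1 held 4.45 TPM in replicate 1 and 4.78 TPM in replicate 2, which were 31.8% and 28.8% of the gene. The membrane form was higher in both libraries, and the soluble form took 42.3% ± 5.03 of coding TPM (SD, n = 2), 45.9% in replicate 1 and 38.8% in replicate 2. Of the exonic length of Flt1-203, 64.6% (4066 bases) lies within an intron of the membrane form. Whether unspliced Flt1 RNA, which total RNA contains, entered this estimate was not tested. A noncoding processed transcript, Flt1-201, took a further 26.7% of the gene's TPM in replicate 1 and 25.7% in replicate 2. On coding transcripts alone Flt1 stood at 9.70 and 12.3 TPM.

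Flt4 (chr11:49609263-49652739, plus strand), the receptor for VEGF-C that marks lymphatic endothelium later and also blood endothelium and endocardium in the embryo, was the lowest of the kinases. It stood at 4.6 TPM in replicate 1 and 5.64 TPM in replicate 2, from 800 and 690 expected counts. The coding transcript Flt4-201 held 97.4% and 96.9% of the gene. The lymphatic endothelial markers Pdpn, Prox1 and Lyve1 stood at 21.2 ± 0.410, 11.2 ± 2.81 and 1.99 ± 0.0707 TPM (SD, n = 2). Of these, Prox1 is also made by cardiomyocytes and Pdpn by epicardium, so the list does not mark lymphatic cells alone in this tissue.

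The 3 kinases summed to 41.7 TPM in replicate 1 and 56.5 TPM in replicate 2, of which Kdr took 58.0% ± 3.77, Flt1 31.5% ± 3.02 and Flt4 10.5% ± 0.748 (SD, n = 2 each). Flt4 and Kdr were apart, at a log2 TPM ratio of -2.47 ± 0.197, and by counts at -2.40. Flt1 and Kdr were not apart under the limit of 1, at -0.89 ± 0.233, though Kdr was higher in both libraries. On coding transcripts alone the same ratio came to -1.35, and by counts to -1.04, both past that limit.

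Nrp1 (chr8:128358604-128503363, plus strand), a co-receptor of Kdr and of semaphorin 3A, was second of all 10 genes by TPM. It stood at 47.2 TPM in replicate 1 and 54.5 TPM in replicate 2, from 7820 and 6382 expected counts, the most of any member. Nrp2 (chr1:62703285-62818695, plus strand), a co-receptor of Flt4, stood at 4.02 TPM in replicate 1 and 4.31 TPM in replicate 2, from 592 and 497 expected counts. Nrp1 made up 92.4% ± 0.373 of neuropilin TPM, and the pair was apart at a log2 TPM ratio of 3.61 ± 0.0768 (12.2-fold, SD, n = 2). The ratio by counts was 3.70, and with the M21 length of Nrp1 it was 4.34. Nrp1 also stood above Kdr in both libraries, at 0.85 ± 0.257 on the log2 TPM scale, which did not reach the limit of 1. With the M21 length the ratio was 1.58, past that limit. The counts were kept in that setting, so the shorter M21 length could only raise both Nrp1 ratios.

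Nrp2 is spliced to 1 of 2 alternative ends, form a and form b, whose last exons code different membrane-spanning and cytoplasmic segments. The first 150 coding bases of each last exon are shown in capitals after the preceding 15 bases of the transcript in lower case, from GENCODE M21 on GRCm38, because they are where the forms part: form a at chr1:62815333-62815482 and form b at chr1:62795709-62795858, both plus strand.
Nrp2-204: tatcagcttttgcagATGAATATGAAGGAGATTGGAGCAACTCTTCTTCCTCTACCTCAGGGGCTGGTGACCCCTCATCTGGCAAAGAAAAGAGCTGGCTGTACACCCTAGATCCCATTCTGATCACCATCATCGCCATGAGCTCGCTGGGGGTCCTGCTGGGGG
Nrp2-201: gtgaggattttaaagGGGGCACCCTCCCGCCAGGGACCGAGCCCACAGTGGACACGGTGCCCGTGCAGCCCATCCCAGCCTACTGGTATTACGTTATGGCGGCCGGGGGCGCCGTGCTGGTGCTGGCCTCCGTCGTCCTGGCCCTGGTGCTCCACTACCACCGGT
Form a took 54.5% of coding Nrp2 TPM in replicate 1 and 65.5% in replicate 2. Form b took the remaining 45.5% and 34.5%. Form a was thus ahead in both libraries, at 60.0% ± 7.75 (SD, n = 2). Single Nrp2 transcripts were less certain: the leading one, Nrp2-204, held 36.7% and 52.6% of the gene, yet its deposited intervals ran from 0.136 to 1.53 TPM in replicate 1 and from near 0 to 2.22 TPM in replicate 2. Of the other transcripts at 10% or more in either library, Nrp2-201 (form b) held 25.4% and 26.3%, and Nrp2-205 (form b) held 11.2% and 6.76%. A retained-intron transcript, Nrp2-207, held 19.7% in replicate 1 and 4.68% in replicate 2. Nrp2-203 (form a) was listed at 0 in both libraries, yet by posterior mean it held 12.6% in replicate 1 and 22.0% in replicate 2. Nrp2-204 then held 22.0% and 27.0%, so the division between these 2 form a transcripts depends on the estimate used.

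**Figure D2:**
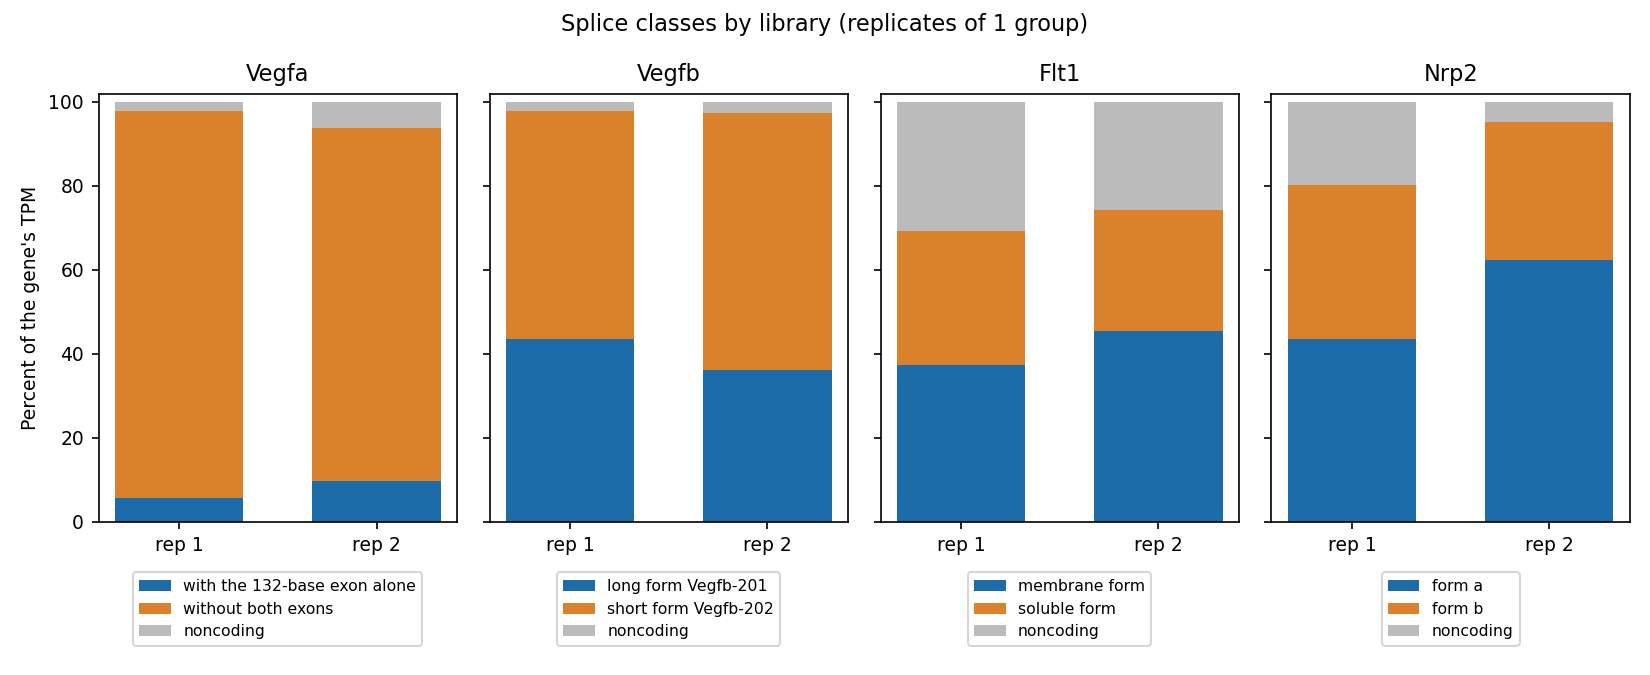
Share of each gene's TPM (percent, 0 to 100) in its splice classes, with 1 bar per library. Vegfa lies mostly in forms without both alternative exons (92.1% of its TPM in replicate 1 and 84.1% in replicate 2), while Vegfb, Flt1 and Nrp2 are each divided between 2 coding classes. Noncoding transcripts hold a further 30.8% and 25.7% of Flt1 and 19.7% and 4.68% of Nrp2 in the same libraries.

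Over all 10 genes the files list 35 transcripts. Vegfc, Pgf and Nrp1 have 1 transcript each, and in 7 of 7 members with several the same transcript led in both libraries, against 85.9% of protein-coding genes with several. By posterior mean shares the count was 6, since Nrp2-201 led Nrp2 in replicate 1 at 24.5% and Nrp2-204 in replicate 2 at 27.0%. Annotated lengths in GENCODE M21 matched those of the files for 32 of the 35. The exceptions were Vegfa-211, with 3324 bases in the files and 975 in M21, Nrp1-201, with 5907 and 3597, and Vegfc-201, with 1881 and 2449, so the levels of these 3 genes rest on transcript models that differ between annotations. With the counts kept and the M21 length used, a setting chosen after the data were seen, Nrp1 came to 78.3 TPM in replicate 1 and 90.6 TPM in replicate 2, above Vegfb. Vegfc came to 9.89 and 9.93 TPM in the same way and kept its rank, with Vegfa left on the length of the files. Reads were not assigned anew, so the shorter length could only raise Nrp1 and the longer one only lower Vegfc. These values show the dependence on length and are not estimates under M21. Vegfa was not recomputed with the M21 length of Vegfa-211. How its level, share, rank and ratios, and the rank of Vegfc beside it, would change on that length was therefore not tested. The authors' model assigned no gene-level uncertainty to any member (posterior SD of the count 0 in both libraries for 10 of 10), which leaves no estimated sharing of their reads with other genes in that model. Of genes that overlap a member, Mir1903 lies in Nrp1 with 0 counts in both libraries, and Gm29083 and Gm37121 lie in Nrp2 with 1 and 21 counts in replicate 1 and 1 and 6 counts in replicate 2.

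In order of mean TPM the genes ran Vegfb, Nrp1, Kdr, Flt1, Vegfc, Pgf, Flt4, Vegfa, Nrp2 and Vegfd. Of the 9 steps between neighbours, 7 were separated, meaning that the lower library of the higher gene lay above the higher library of the lower gene. The exceptions were Flt4 against Vegfa and Vegfa against Nrp2, whose ranges overlapped. That rule leaves out the deposited intervals. Across libraries these overlapped for some of the separated steps, namely Vegfb against Nrp1, Flt1 against Vegfc and Pgf against Flt4. On the lengths of the files Vegfb ranked first by a narrow margin, 56.6 TPM at its lowest against 54.5 TPM at the highest for Nrp1, and on the M21 length of Nrp1 it ranked second. By CPM, which leaves out gene length, Nrp1 came first at 239.8 ± 18.1, then Kdr at 134.9 ± 34.1, Flt1 at 64.8 ± 8.85 and Vegfb at 51.0 ± 0.574 CPM (SD, n = 2).

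Receptor levels were set beside the endothelial genes Pecam1, an adhesion molecule, and Cdh5, the cadherin of endothelial junctions. All 12 endothelial and endocardial markers reached 1 TPM in both libraries, led by Plvap at 115.7 ± 11.97, Egfl7 at 111.8 ± 6.80 and Eng at 88.7 ± 7.49 TPM (SD, n = 2). Flt1 kept a nearly constant ratio to Pecam1, with log2 TPM ratios of -1.45 in replicate 1 and -1.46 in replicate 2. The ratio of Kdr to Pecam1 was less even, at -0.73 in replicate 1 and -0.41 in replicate 2. The ratio of Flt1 to Cdh5 was -1.13 in replicate 1 and -1.04 in replicate 2 on the same scale. The ratio of Kdr to Cdh5 was -0.41 in replicate 1 and 0.011 in replicate 2, on both sides of 0. Flt1 was apart from both markers by TPM and from neither by counts, at -0.71 and -0.66. Kdr was apart from neither, and by counts both of its ratios turned positive, at 0.33 to Pecam1 and 0.38 to Cdh5.

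The libraries were compared gene by gene with an exact two-sided binomial test of rounded counts, Benjamini-Hochberg adjusted over 16621 genes, which covers counting error alone and compares these 2 libraries, not conditions. Calls needed both a 2-fold difference and an adjusted p below 0.05. None of the 10 members was called, where 4.69% of all genes tested were (3.32% higher and 1.37% lower in replicate 1). At an adjusted p under 0.05 with no fold limit 7 of 10 members passed, where 39.6% of all genes did; 6 of the 7 were lower in replicate 1, beside 3524 of the 6580 genes that passed overall. With a fold limit of 1.5 the one member called was Vegfa, where 9.00% of all genes were called.

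Vegfa was 1.62-fold higher in replicate 1 (log2 0.69, 95% counting interval 0.46 to 0.94, exact binomial adjusted p = 2.46e-08). It was the one member that passed in that direction. Kdr was lower in replicate 1 at a log2 ratio of -0.53 (interval -0.59 to -0.46, exact binomial adjusted p = 5.92e-57). Its interval was narrower than those of Pgf and Vegfd, which had a ratio of like size and far fewer counts. Pgf stood at -0.52 (-0.77 to -0.26, exact binomial adjusted p = 3.01e-04) and Vegfd at -0.52 (-0.96 to -0.08, exact binomial adjusted p = 0.0471). Flt1, Flt4 and Nrp1 passed at smaller ratios of -0.29, -0.24 and -0.16. Vegfb at 0.02, Vegfc at 0.04 and Nrp2 at -0.20 did not pass. For Vegfb the interval ran from -0.09 to 0.12, so a difference of more than that between the libraries would lie outside its counting error.

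The median log2 ratio of the members was -0.22, beside -0.000449 over all genes tested, and their median absolute ratio was 0.26, beside 0.19. Of the 12 endothelial markers, 10 were lower and 2 higher in replicate 1, at a median log2 ratio of -0.16, with summed levels of 544.0 TPM in replicate 1 and 626.2 TPM in replicate 2. The 5 cushion mesenchyme markers were also all lower in replicate 1, at sums of 596.3 and 691.9 TPM, while the 5 erythroid markers were all higher. The part of these cell types in the lower receptor ratios, replicate 1 over replicate 2, was not tested.

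**Figure D3:**
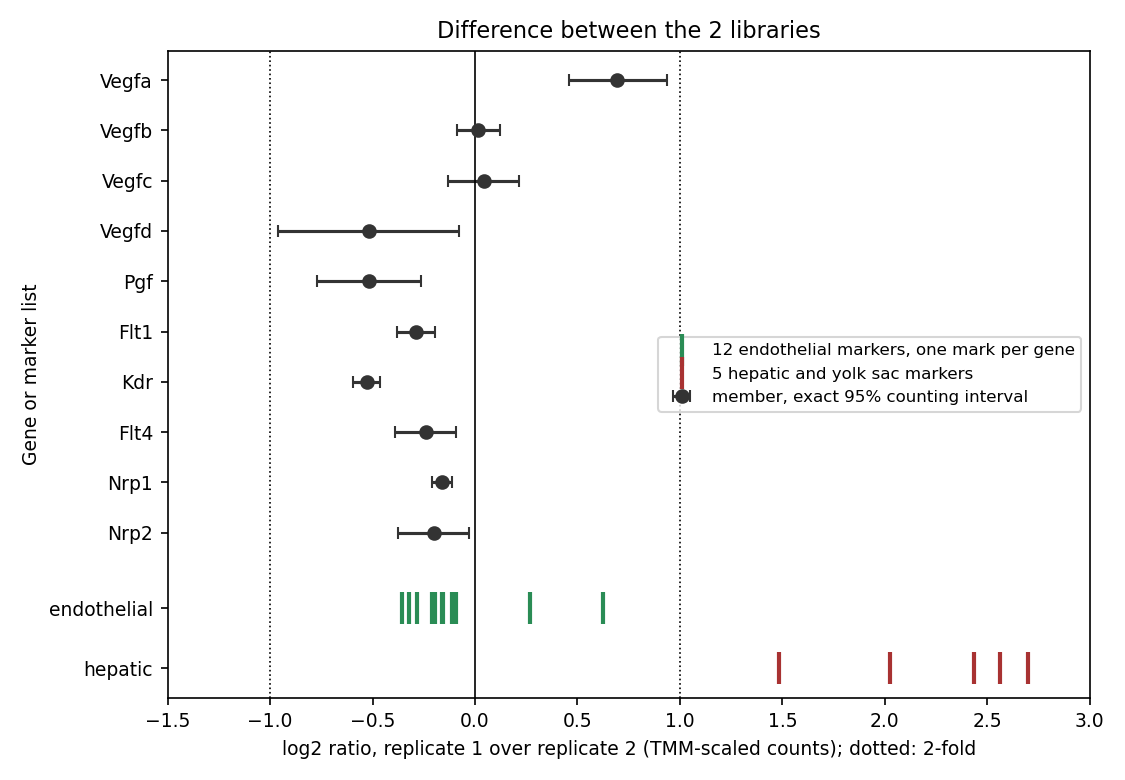
Log2 ratio of replicate 1 over replicate 2 for each member with its exact 95% counting interval, above the ratios of 12 endothelial and 5 hepatic and yolk sac markers (1 mark per gene); dotted lines mark 2-fold. Vegfa lies to the right at 0.69, Kdr, Pgf and Vegfd to the left at -0.53 to -0.52, and none of the members passes 2-fold.

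Further genes of the pathway were taken from lists chosen for their roles. All 26 VEGF receptor signalling genes reached 1 TPM in both libraries, at a median of 29.2 TPM in replicate 1 and 31.2 TPM in replicate 2, above the protein-coding median. The highest were the small heat shock protein Hspb1 at 607.1 ± 3.98 TPM, the GTPases Cdc42 at 414.4 ± 40.3 TPM and Rac1 at 229.6 ± 13.1 TPM, and the kinase Map2k2 at 112.8 ± 1.15 TPM (SD, n = 2 each). These act in most cell types. The lowest was the sphingosine kinase Sphk1 at 1.86 ± 0.488 TPM. None of the 26 was called between the libraries, where 4.69% of all genes tested were, so this does not set the list apart.

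All 15 genes of transcription control of VEGF genes reached 1 TPM, at medians of 12.5 TPM in replicate 1 and 13.8 TPM in replicate 2. The hypoxia factor Hif1a led at 143.3 ± 12.9 TPM, followed by the endothelial factor Ets1 at 33.7 ± 7.81, Vhl, which marks HIF proteins for breakdown, at 25.5 ± 3.55, and Arnt, the HIF partner, at 18.0 ± 4.19 TPM (SD, n = 2). Etv2, which starts the endothelial lineage earlier in development, was lowest at 2.29 ± 0.530 TPM. None was called between the libraries, where 4.69% of all genes tested were.

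Of 12 genes of ligand processing and matrix, 11 reached 1 TPM, at medians of 14.9 TPM in replicate 1 and 12.8 TPM in replicate 2. The heparan sulfate enzymes Sulf2 at 98.5 ± 0.445 TPM, Ext2 at 50.1 ± 8.15 TPM and Sulf1 at 33.3 ± 4.14 TPM, and the heparan sulfate proteoglycan Hspg2 at 41.4 ± 0.311 TPM, led (SD, n = 2). The lowest was Ccbe1, which is needed to activate VEGF-C, at 0.90 TPM in replicate 1 and 0.68 TPM in replicate 2. None was called.

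Of 13 semaphorin partners of the neuropilins, 11 reached 1 TPM, at medians of 6.09 TPM in replicate 1 and 6.53 TPM in replicate 2. Gipc1, which binds the neuropilin tail, led at 127.6 ± 3.80 TPM, followed by Sema3c, a ligand needed for outflow tract septation, at 23.7 ± 1.80, the plexin Plxnd1 at 22.3 ± 2.40 and Sema3a at 15.6 ± 1.48 TPM (SD, n = 2). Sema3g was lowest at 0.02 and 0.07 TPM, from 3 and 6 counts. None of the 12 tested was called, beside 4.69% of all genes tested.

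VEGF response genes, which VEGF is known to induce in endothelial cells, had the lowest median of the lists, with 9 of 12 at 1 TPM and values of 3.90 TPM in replicate 1 and 4.71 TPM in replicate 2. Rcan1, a calcineurin regulator, led at 91.6 ± 24.6 TPM, then Kdm6b at 17.2 ± 1.82, Nedd9 at 13.3 ± 2.02 and Dusp5 at 6.92 ± 0.170 TPM (SD, n = 2). Of the 11 tested, Esm1, a secreted proteoglycan of tip cells, was called higher in replicate 1 (38 and 13 counts, log2 ratio 1.06, exact binomial adjusted p = 0.0413), at 0.67 TPM in replicate 1 and 0.32 TPM in replicate 2. Over all genes tested, 4.69% were called, with 3.32% higher in replicate 1. Egr3 was lowest, at 0.32 TPM in replicate 1 and 0.04 TPM in replicate 2 from 12 and 1 counts.

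**Figure D4:**
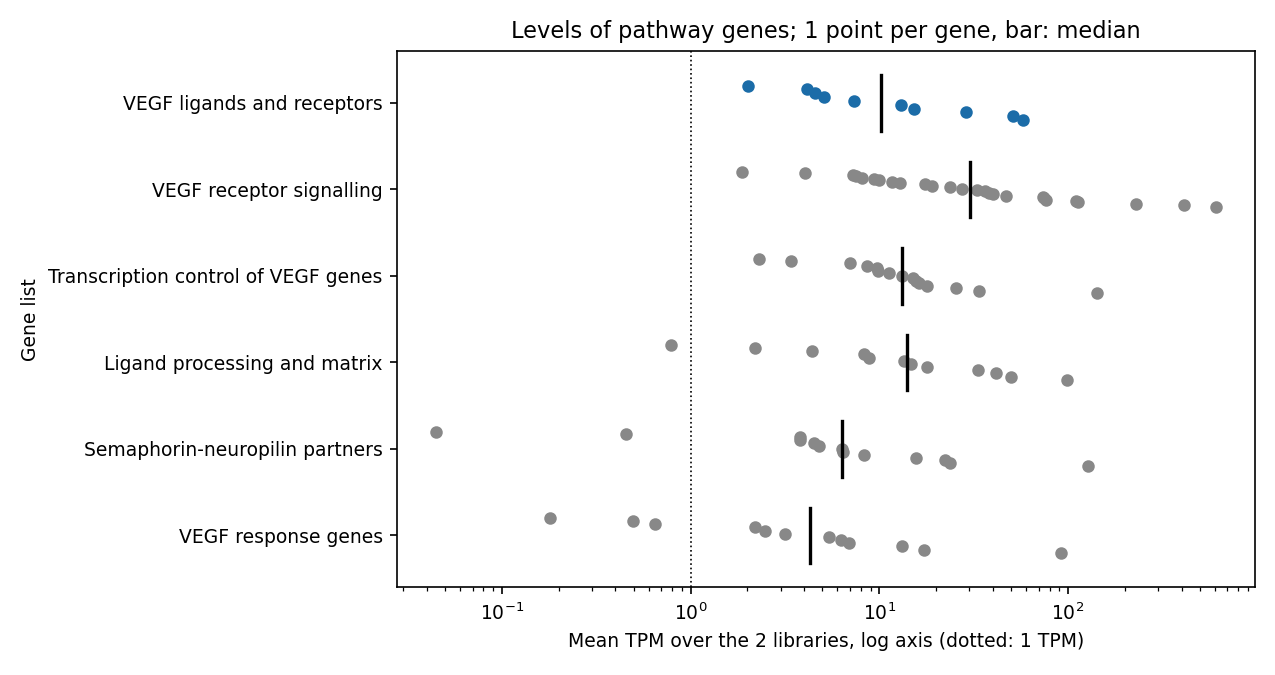
Mean TPM over the 2 libraries (log axis) of each gene in 6 groups, 1 point per gene with a bar at the group's median; the dotted line marks 1 TPM. The members, in blue, run between 2.01 and 57.5 TPM; the signalling genes reach 607.1 TPM and the response genes have the lowest median.

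RefSeq promoter windows of 300 bases (250 before to 50 after a start, GRCm38.p6) were matched for all 10 genes, 12 windows in all since Vegfa and Pgf have 2. Both strands were searched for 4 motifs. The GC box GGGCGG was in 10 of 12 member windows, against 35.7% of all 32851 windows. The TATA box TATAAA was in 2, those of Flt1 and Vegfd, against 13.6%. The hypoxia element core ACGTG was in 1, a Vegfa window, against 19.6%, and the cyclic AMP element TGACGTCA in 1, that of Flt1, against 1.79%. That Vegfa window (chr17:46025114-46025413) lies inside the gene. The Vegfa window at the annotated gene start (chr17:46032328-46032627) lacked the ACGTG core. These matches describe letters in the windows and are not measurements of binding.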

How the data were processed

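The authors deposited a gene and a transcript table per library. Per the file headers, these give expected counts (estimated reads, not normalized), TPM with posterior means and intervals, posterior SDs of the counts, lengths in bases, and each transcript's percent of its gene's TPM. The deposited notes name mm10 and annotation release M4; tools and strand setting were not given in the sources used here, so whether antisense reads were counted apart is unknown. Genes were named through GENCODE M21 on GRCm38, to which 42462 of 43346 mouse gene identifiers (98.0%) matched.

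The members and lists were chosen with earlier results of these data known. Named are all members, the 4 highest and the lowest gene of each pathway list and any called, the 3 highest cardiomyocyte, endothelial and lymphatic markers (other marker lists are given as sums or counts), transcripts at 10% or more, and overlapping genes. With 2 libraries of 1 group, no genes of like pattern were sought, and no p is given for levels. The labels separate the replicates, and p-values between them measure counting error in these libraries.

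Expected counts were rounded to whole numbers. The binomial test used TMM effective sizes from edgeR 4.0.16 in R 4.3.3 and a summed count of at least 20, with 0.5 added for folds. DESeq2 1.42.0 size factors were an alternative. Python 3.11.15, pandas 2.3.3 and scipy 1.17.1 were used. A count of 3 equals 0.0871 CPM in replicate 1 and 0.119 CPM in replicate 2. Protein sequences were not used here, and the planned protein comparison was not run.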

Additional observations from a re-analysis of the deposited data

How the results depend on the processing

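Of 270 values recomputed under an alternative, 218 were counted as unchanged. These kept their call and direction, or moved by less than 1 SD of the libraries, or, for counts, stayed within 1.5 times. The last includes 6 in place of 7 members with the same leading transcript by posterior means. For levels, shares and splice percents, leaving out 1 of 2 libraries always moves the mean by less than 1 SD. Those alternatives could not come out otherwise, so 218 of 270 does not measure how robust the values are. By CPM, without gene length, the log2 ratio of Pgf over Vegfa reversed to -0.30, Kdr over Pecam1 to 0.33 and Kdr over Cdh5 to 0.38; Vegfc over Vegfa fell short at 0.81, Flt1 over Pecam1 at -0.71 and Flt1 over Cdh5 at -0.66, and Flt1 over Kdr passed at -1.04. By counts, Vegfb was 54.9% of the ligands and Nrp1 92.9% of the neuropilins. These alternatives differ from TPM by gene length alone. On coding transcripts alone, Flt1 over Kdr passed at -1.35, Kdr was 63.7% of the kinases and Nrp1 93.3% of the neuropilins. Posterior means gave 67.3% for Vegfb and 81.4% for Vegfa without both exons, and the cause was not tested. Leaving out each replicate gave 0.11 to 1.26 for Pgf over Vegfa, -1.05 to -0.72 for Flt1 over Kdr, 0.67 to 1.03 for Nrp1 over Kdr and -0.41 to 0.011 for Kdr over Cdh5, which changed sign without replicate 1. A fold limit of 1.5 called 1496 genes in place of 779, of them 1017 higher and 479 lower in replicate 1 (551 and 228 at 2-fold), and 1 member in place of 0. With no count filter 1141 genes were called, 726 higher and 415 lower. With the M21 length of Nrp1, chosen after the data were seen, Nrp1 over Kdr passed at 1.58. The counts were kept there, so the shorter length could only raise that ratio. No paired analysis was possible because there is 1 group. Spike-in rows set the TPM scale: over mouse genes alone every member's TPM was higher. Counts were lowest for Vegfd, at 87 and 91, and the number of counts limits its precision and that of single Vegfa and Nrp2 transcripts.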
